A study of Mus musculus with 6 samples.

Results

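The collagens and the interstitial matrix genes made with them were followed in islets of Langerhans, the endocrine cell clusters of the pancreas, from pregnant and non-pregnant mice. The members are every array probe set whose single annotated gene symbol is a collagen chain (Col, a number, a and a number) or 1 of 9 interstitial matrix genes, Dcn, Lum, Bgn, Fn1, Sparc, Lox, Fbn1, Eln and Postn. This gave 99 probe sets for 50 genes, of 34958 probe sets for 18194 genes with a single symbol. No single-symbol probe set carried Fbn1, so fibrillin 1 was not analysed here.

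Collagens are secreted proteins in which 3 chains wind into a triple helix. Fibrillar collagens such as types I, III and V form the tensile fibres of interstitial tissue, type IV forms the sheet of basement membranes, and type VI forms beaded filaments that link fibrils, basement membranes and cells. Small proteoglycans such as decorin bind to fibrils and shape them. In the pancreas, stellate cells and other fibroblasts make most of the fibrillar collagen, and islet capillaries are known to supply the basement membrane that mouse beta cells rest on.

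Islets were isolated by digestion with collagenase from mice at 12.5 days post coitum of pregnancy (dpc; 3 arrays) and from non-pregnant mice given as 0 dpc (3 arrays), in a study that asked what drives islet cells to multiply in pregnancy. The sources used here state no strain, genotype or age. They also do not say whether replicate arrays stem from different mice, and the p-values therefore reflect only how far these arrays vary, possibly for technical reasons. The measure is the MAS5 signal of a probe set, an intensity after background correction, and all arrays had a 2% trimmed mean of 500.003. Differences are on the scale of log2(signal + 16), and the test was limma with Benjamini-Hochberg adjustment over 27022 probe sets, past an adjusted p of 0.05.

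The groups also differed in measures that this design cannot tell apart from pregnancy. Beta actin control probe sets track how intact the RNA is, by the signal at the 3' end over that at the 5' end. This ratio was 1.63 to 1.665 on the pregnant and 1.556 to 1.626 on the non-pregnant arrays, apart by a narrow margin. The same ratio for Gapdh was 0.687 to 0.725 on the pregnant and 0.669 to 0.711 on the non-pregnant arrays, with overlap. Of 8 islet endocrine markers, all tested, 0 passed in limma and 0 had an unadjusted p under 0.05. Over all 12914 genes tested, 3516 had an unadjusted p under 0.05 in limma. The median log2 difference of the 8 markers was 0.01. Their summed signal was 260366 to 274915 on the pregnant and 256430 to 279128 on the non-pregnant arrays. Markers of acinar cells, the enzyme-secreting cells around the islets, fell in 18 of 18 genes, with a median log2 difference of -1.23, and their summed signal was 119029 to 192668 there against 203920 to 381348 on the non-pregnant arrays. Non-pregnant replicate 2 stood apart at 203920, against 381348 and 379129 on the other non-pregnant arrays, and without it the median was -1.58. All that were tested lay below 0 in every setting (17 with a top 40% filter on signal, 18 otherwise). However, 1 passed with robust eBayes, 0 passed in limma without a trend of variance on signal, and 7 passed without pregnant replicate 1. The part of acinar content or RNA integrity in the results below was not tested. In a bulk sample, fewer cells of a type and less RNA per cell cannot be told apart.

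Of the 50 genes, 35 had a probe set bright enough to be tested, with a mean signal above about 50.5, and each of these is represented by its brightest one. In pregnancy 4 of the 35 fell and 1 rose. The falls were those of Dcn, Col1a2, Col3a1 and Col6a2, and the rise was that of Col6a3. Across all 12914 genes tested, 5.79% were lower and 6.1% higher, against 11.4% and 2.86% of the 35. By probe set, 4 of 49 members were lower and 1 higher, where the shares over all probe sets were 4.78% and 4.79%. With each array centred on its median the calls over all probe sets split into 1430 higher and 583 lower in place of 1294 and 1293, while 4 member genes were lower and 1 higher as before. Without a trend of variance on signal in limma, 2 of the 4 falls passed.

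Most of the other tested genes lay below 0 without passing. Of the 35, 30 (85.7%) had a negative difference, against 56.5% of all genes tested, and their median was -0.36 against -0.04. An unadjusted p under 0.05 in limma was found for 15 of the 35, against 3516 of all 12914 genes tested. The pregnant arrays lay wholly below the non-pregnant ones for 10 of the 35 (28.6%) and wholly above for 1 (2.86%), where 17.9% and 13.9% of all genes did so. The class medians were -0.37 for 8 fibrillar chains, -0.03 for 6 basement membrane chains, -0.51 for 3 Col6 chains and -0.50 for 7 interstitial genes, and no test set one class against another. The Col6 median rests on few genes and was 0.65 with no filter on signal.

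Markers of the cells known to make interstitial matrix, which are not members, were also lower on average. Of 14 stellate cell, pericyte and fibroblast markers 12 were tested, and 1 fell and 0 rose, where 5.79% of all genes tested were lower and 6.1% higher. Of the 12, 10 lay below 0, against 56.5% of all genes tested, and the median was -0.28 against -0.04. An unadjusted p under 0.05 in limma was found for 5 of the 12, against 3516 of all 12914 genes tested. The summed signal of the 12 was 9209 to 11249.5 on the pregnant and 11002 to 11564 on the non-pregnant arrays, with overlap. This sum rests mostly on Rgs5, the brightest of them. With log2 values centred per gene, the median of the 12 was -0.23, -0.15 and 0.04 on the pregnant arrays. On the non-pregnant arrays it was 0.12, 0.12 and 0.17, without overlap. For single genes, 17.9% of all tested had the pregnant arrays wholly below the non-pregnant ones. The gene that fell was Dpt, dermatopontin, a decorin-binding matrix protein (-0.60 ± 0.17, adjusted p = 0.0458), whose call was lost in 10 of 16 settings. The pericyte marker Rgs5, at 5638, 6848 and 6903 on the pregnant arrays against 6552, 6558 and 6294 on the non-pregnant arrays, had -0.01 ± 0.08, and Vim and Acta2 had -0.26 ± 0.10 and -0.29 ± 0.12 and did not pass (adjusted p = 0.125 and 0.175). Des and Mfap5 had positive differences of 0.33 ± 0.22 and 0.28 ± 0.32 and did not pass. Pdgfra, Cygb and Tagln had -0.58 ± 0.33, -0.55 ± 0.24 and -0.53 ± 0.24. Thy1, Pdgfrb and Cspg4 had -0.30 ± 0.16, -0.25 ± 0.13 and -0.10 ± 0.23, and none of these passed. Pi16 and Cd248 were at most 14.6 and 22.5 on any array and were not tested. The part of these cells in the differences of the matrix genes was not tested.

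**Figure D1:**
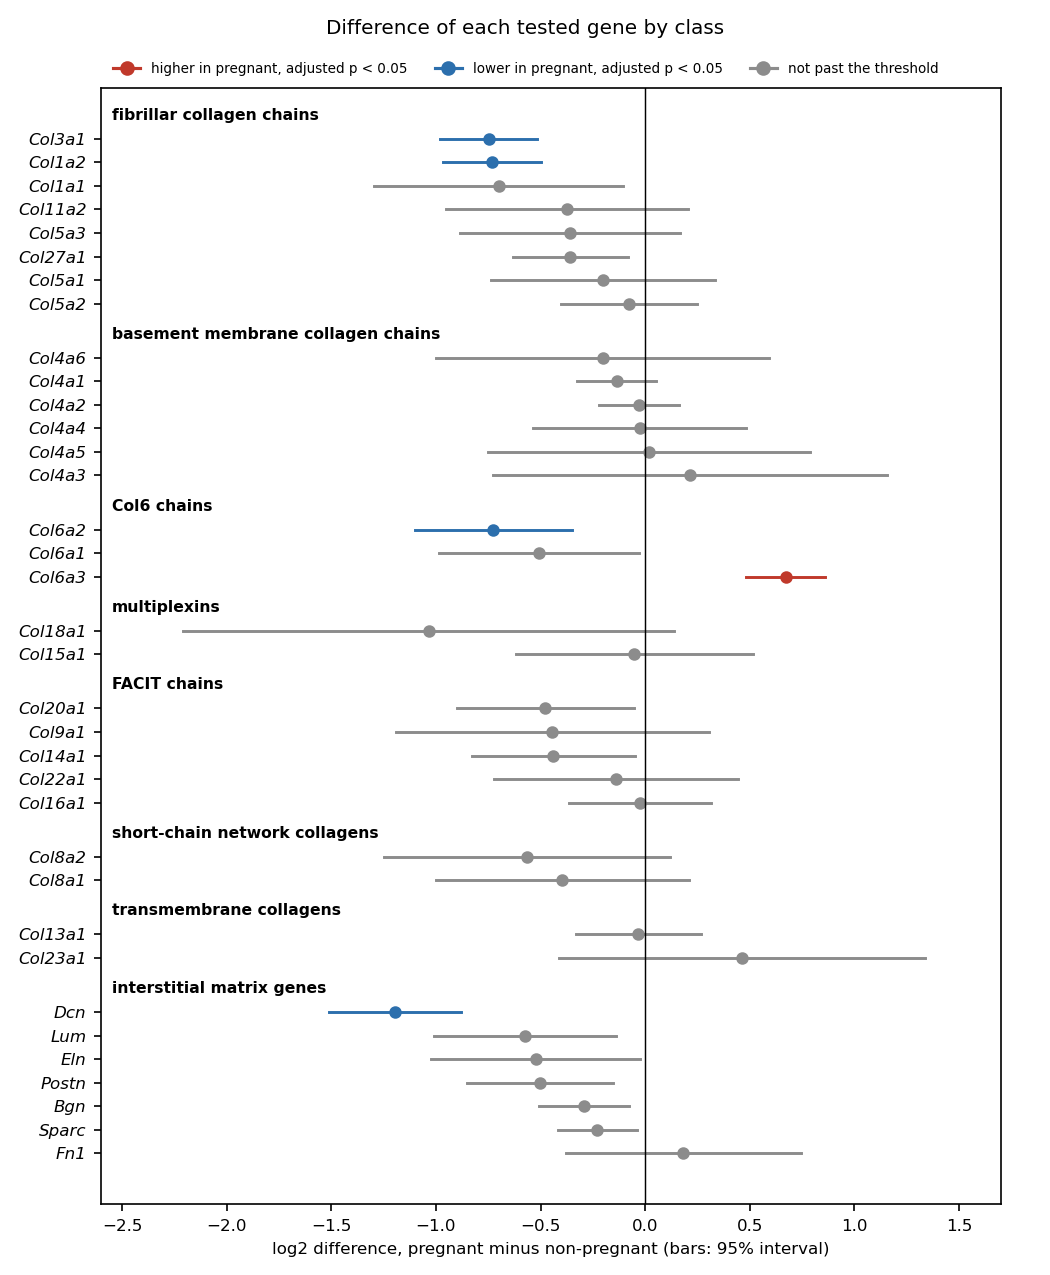
Log2 difference, pregnant minus non-pregnant, of the 35 tested genes (points) with 95% intervals from limma (bars), grouped by class; red marks the 1 gene past the threshold that is higher in pregnant islets and blue the 4 that are lower. All 8 fibrillar chains lie to the left of 0, the 6 basement membrane chains lie on both sides of it, and the Col6 chains lie on opposite sides.

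Among the collagens that fell, the fibrillar chains Col1a2 and Col3a1 had the lowest adjusted p. Col1a2 encodes the alpha 2 chain of type I collagen and Col3a1 the single chain of type III, the thin fibres of soft tissue. The promoter windows of both are shown because the genes moved together. Each spans 250 bases before to 50 after the transcript start, from RefSeq on GRCm38.p6, and capitals mark 4 motifs searched on both strands: the TATA box (TATAAA), the box spelled CCAAT, the GC box (letters GGGCGG) and a palindrome of the STAT type (letters TTCNNNGAA). Col3a1 lies at chr1:45311288-45311587 and Col1a2 at chr6:4505368-4505667, both on the plus strand.
Col3a1: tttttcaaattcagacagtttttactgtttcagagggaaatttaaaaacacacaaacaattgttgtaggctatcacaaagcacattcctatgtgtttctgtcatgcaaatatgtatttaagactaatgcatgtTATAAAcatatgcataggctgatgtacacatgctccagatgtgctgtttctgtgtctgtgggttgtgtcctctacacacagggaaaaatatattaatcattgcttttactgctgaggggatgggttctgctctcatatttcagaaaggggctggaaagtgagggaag
Col1a2: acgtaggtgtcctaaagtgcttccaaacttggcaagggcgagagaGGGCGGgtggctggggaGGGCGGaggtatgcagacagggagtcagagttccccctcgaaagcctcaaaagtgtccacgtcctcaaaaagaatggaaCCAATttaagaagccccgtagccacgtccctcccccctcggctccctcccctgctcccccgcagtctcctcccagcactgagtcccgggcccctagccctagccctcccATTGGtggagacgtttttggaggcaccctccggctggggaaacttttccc
In Col1a2, GC boxes began at -205 and -188 and CCAAT boxes at -109 and, on the minus strand, at 1, counted from the transcript start. Col3a1 had neither and held a TATAAA at -117. Among all 32851 windows, 35.7% held the GC box, 37.4% the CCAAT box, 13.6% the TATA box and 8.3% the palindrome.

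The signal of Col3a1 was 1739.8, 2152 and 2499.7 on the pregnant arrays against 3459.9, 3615 and 3576 on the non-pregnant arrays. Every pregnant array lay below every non-pregnant one, and pregnant replicate 1 was the lowest. The mean was 2130.4 ± 380.4 in pregnant and 3550.4 ± 80.7 in non-pregnant islets (SD, n = 3 each), or -0.75 ± 0.11 as log2 difference with its SE (adjusted p = 9.49e-04). Its dimmer probe set, at 65.3, 142 and 139 on the pregnant arrays against 184, 145 and 216 on the non-pregnant arrays, was also apart but did not pass (-0.64 ± 0.27, adjusted p = 0.185). For the brighter one the adjusted p was 0.060 without the variance trend.

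Col1a2 had 648, 677 and 849 on the pregnant arrays against 1225, 1218 and 1170.1 on the non-pregnant arrays. The groups were again apart, with means of 724 ± 109 in pregnant and 1204.5 ± 30.0 in non-pregnant islets (SD, n = 3 each) and a log2 difference of -0.73 ± 0.11 (adjusted p = 0.00113). The other tested probe set of the gene, at 144, 206 and 211 on the pregnant arrays against 184, 321 and 274 on the non-pregnant arrays, overlapped between the groups (-0.42 ± 0.22, adjusted p = 0.276).

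Col1a1, whose product pairs with that of Col1a2 in type I collagen, was dim: its signal was 45.2, 94.0 and 94.3 on the pregnant arrays against 125, 131 and 137 on the non-pregnant arrays. Its groups were apart as well, and the log2 difference had the size of those of Col1a2 and Col3a1 with a wider error (-0.70 ± 0.27, adjusted p = 0.145). The log2 ratio of Col1a1 to Col1a2 was -3.02 ± 0.39 on pregnant and -3.05 ± 0.09 on non-pregnant arrays (SD, n = 3 each), a difference of 0.03 ± 0.23 (SE; exact 2-sided permutation p = 1, over 6 arrays). Its sign changed with a pseudocount of 1 (-0.08) and with the probe sets of each gene averaged (-0.12).

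Type V collagen, which nucleates and narrows type I fibrils, did not show a difference past the threshold in any chain. The signal of Col5a1 was 78.3, 113 and 126 on the pregnant arrays against 98.0, 148 and 125 on the non-pregnant arrays. Col5a2, the neighbour of Col3a1 on the chromosome in GRCm38.p6, had 214, 273 and 270.3 on the pregnant arrays against 264, 267 and 265 on the non-pregnant arrays. Its log2 difference was -0.08 ± 0.15, with a 95% interval of -0.40 to 0.25 that does not reach the -0.75 of Col3a1. Its sign changed without pregnant replicate 1 (0.03).

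Col5a3 had 113, 70.2 and 82.3 on the pregnant arrays against 108, 126 and 115 on the non-pregnant arrays (-0.36 ± 0.24). The remaining tested fibrillar chains were Col11a2, of the cartilage type XI (-0.37 ± 0.27), and Col27a1 (-0.36 ± 0.13, adjusted p = 0.105), both overlapping between the groups. Col11a1, Col24a1 and Col2a1, the cartilage type II chain, were too dim to be tested.

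**Figure D2:**
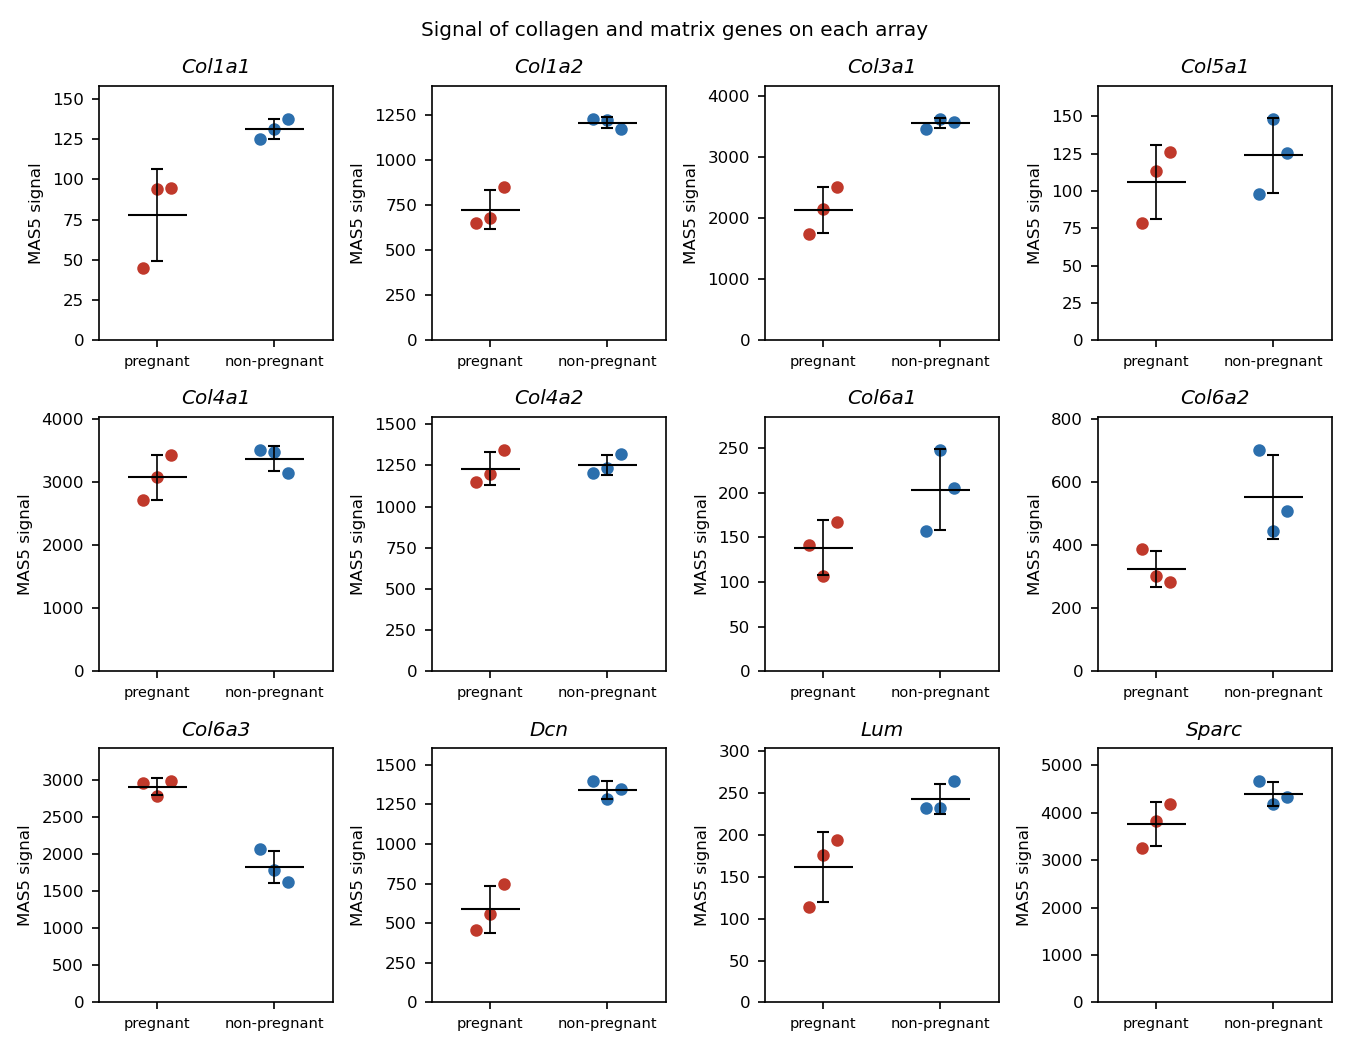
MAS5 signal of 12 collagen and matrix genes on each array (linear axes from 0), with 3 pregnant arrays on the left and 3 non-pregnant arrays on the right of each panel; horizontal lines are means and bars 1 SD. The groups are apart for Col1a1, Col1a2, Col3a1, Col6a2, Col6a3, Dcn and Lum, with Col6a3 the 1 gene whose pregnant arrays lie above, and they overlap for Col5a1, Col4a1, Col4a2, Col6a1 and Sparc.

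Among the basement membrane chains 0 of 6 tested genes passed in limma, and 0 had an unadjusted p under 0.05, against 3516 of all 12914 genes. Col4a1 and Col4a2, whose products form the common type IV helix, were the bright ones. The signal of Col4a1 was 2716, 3089 and 3428 on the pregnant arrays against 3506, 3472 and 3144 on the non-pregnant arrays, and that of Col4a2 was 1149, 1196 and 1342 on the pregnant arrays against 1205, 1232 and 1321 on the non-pregnant arrays. In both genes the groups overlapped. The log2 differences were -0.14 ± 0.09 (95% interval -0.32 to 0.05, adjusted p = 0.39) and -0.03 ± 0.09 (95% interval -0.22 to 0.16, adjusted p = 0.89), so falls of the size of Col3a1 lie outside both intervals. Col4a2 changed sign with arrays centred on their medians (0.05).

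Col4a1 and Col4a2 are neighbours that are read in opposite directions, and their promoter windows overlap in 78 bases at chr8:11312777-11312854 (GRCm38.p6, plus strand). The shared stretch is shown because it lies in the windows of both genes, and it holds 1 GC box, in capitals. The box begins at 10 from the start of Col4a1 and at 8 from that of Col4a2, after both transcript starts. Whether either gene depends on this stretch was not tested.
Col4a1 and Col4a2: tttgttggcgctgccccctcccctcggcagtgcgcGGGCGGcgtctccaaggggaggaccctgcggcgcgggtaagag
The log2 ratio of Col4a1 to Col4a2 was 1.31 ± 0.07 on pregnant and 1.42 ± 0.15 on non-pregnant arrays (SD, n = 3 each), a difference of -0.11 ± 0.10 (SE; exact 2-sided permutation p = 0.3). A dimmer Col4a1 probe set had 417, 454 and 627 on the pregnant arrays against 817, 588 and 459.5 on the non-pregnant arrays (-0.29 ± 0.20).

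The other type IV chains, which are known from specialised basement membranes such as that of the kidney glomerulus, were all dim. The signal of Col4a3 was 110.3, 116 and 49.3 on the pregnant arrays against 27.7, 97.4 and 126 on the non-pregnant arrays, and Col4a4 had 102, 96.6 and 124 on the pregnant arrays against 92.9, 138 and 102 on the non-pregnant arrays. Col4a5 had 45.0, 79.4 and 68.1 on the pregnant arrays against 61.7, 36.6 and 98.9 on the non-pregnant arrays, and Col4a6 had 90.9, 73.2 and 54.0 on the pregnant arrays against 81.8, 44.9 and 155 on the non-pregnant arrays. Arrays of a group differed by more than the groups did, with log2 differences of 0.21 ± 0.43, -0.03 ± 0.23, 0.02 ± 0.35 and -0.20 ± 0.37 in that order, and leaving out an array changed the sign of each. Of the multiplexins, the collagens that join basement membranes to the tissue beneath, Col15a1 had -0.05 ± 0.26. Col18a1, the precursor of endostatin, rested on scattered values of 7.7, 61.2 and 155 on the pregnant arrays against 134, 107 and 129 on the non-pregnant arrays (-1.04 ± 0.54, adjusted p = 0.284), and its other probe set had 0.05 ± 0.55.

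Type VI collagen was the member class with calls in both directions: Col6a3 rose and Col6a2 fell. Its helix is built from 1 chain each of alpha 1, alpha 2 and alpha 3, encoded by Col6a1, Col6a2 and Col6a3. Col6a1 and Col6a2 are neighbours on chromosome 10, while Col6a3 lies on chromosome 1. Their promoter windows are shown because Col6a3 and Col6a2 differed in direction, with capitals as above. The windows are Col6a3 at chr1:90843922-90844221, Col6a2 at chr10:76623355-76623654 and Col6a1 at chr10:76725995-76726294, all read on the minus strand of GRCm38.p6. RefSeq gives Col6a2 a second start, whose window at chr10:76623581-76623880 overlaps the one printed and is not shown.
Col6a3: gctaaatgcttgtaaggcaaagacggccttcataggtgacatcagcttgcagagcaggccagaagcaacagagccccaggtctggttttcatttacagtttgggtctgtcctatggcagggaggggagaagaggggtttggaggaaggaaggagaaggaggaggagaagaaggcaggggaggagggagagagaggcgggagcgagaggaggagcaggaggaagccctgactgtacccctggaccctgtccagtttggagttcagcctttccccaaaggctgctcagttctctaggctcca
Col6a2: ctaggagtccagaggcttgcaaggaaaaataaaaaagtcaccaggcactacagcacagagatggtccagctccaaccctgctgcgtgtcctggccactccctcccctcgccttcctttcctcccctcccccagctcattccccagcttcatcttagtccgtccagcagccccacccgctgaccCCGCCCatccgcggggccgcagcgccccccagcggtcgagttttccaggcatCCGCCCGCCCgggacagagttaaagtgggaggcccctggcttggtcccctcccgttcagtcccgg
Col6a1: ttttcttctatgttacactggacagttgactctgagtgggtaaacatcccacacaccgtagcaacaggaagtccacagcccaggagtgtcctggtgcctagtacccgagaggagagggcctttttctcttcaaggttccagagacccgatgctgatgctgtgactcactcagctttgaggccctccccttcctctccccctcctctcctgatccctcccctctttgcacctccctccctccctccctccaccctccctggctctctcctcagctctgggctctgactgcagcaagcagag
The window of Col6a2 held GC boxes at -67, -15 and -11, the last pair overlapping, and its second window held 1 at -175 from its own start, while those of Col6a3 and Col6a1 held none of the 4 motifs. Of the 36 member genes with a window (40 windows), 22 held a GC box in at least 1 window. Among all windows 35.7% held it, a share counted by window and not by gene.

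The signal of Col6a3 was 2958, 2775 and 2979.5 on the pregnant arrays against 2062, 1787 and 1628 on the non-pregnant arrays. All pregnant arrays lay above all non-pregnant arrays, by more than the spread within either group. The mean was 2904.2 ± 112 in pregnant and 1826 ± 219.5 in non-pregnant islets (SD, n = 3 each), or 1.59 times as much, with a log2 difference of 0.67 ± 0.09 (adjusted p = 4.95e-04). Across the 16 other settings tried the difference was 0.59 to 0.76 and always past the threshold. All of them rest on 1 probe set, as no other was found for Col6a3.

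Col6a2 went the other way, with 388, 301 and 283 on the pregnant arrays against 700.4, 446 and 508 on the non-pregnant arrays. The groups did not overlap, although non-pregnant replicate 1 stood well above the other non-pregnant arrays. The log2 difference was -0.73 ± 0.17 (adjusted p = 0.0205), and the call was lost in 5 of 16 other settings, with an adjusted p of 0.068, 0.073 and 0.074 without non-pregnant replicate 1, pregnant replicate 2 and pregnant replicate 3, 0.12 without the variance trend and 0.11 with the probe sets averaged (-0.45). A second probe set of Col6a2, of the kind some of whose probes match other transcripts (suffix x_at), had 289, 309 and 200 on the pregnant arrays against 325, 225 and 359 on the non-pregnant arrays and a log2 difference of -0.18 ± 0.20.

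Col6a1 had 141, 106 and 168 on the pregnant arrays against 158, 248 and 205 on the non-pregnant arrays, lower on average in pregnancy but with overlapping groups (-0.51 ± 0.22, adjusted p = 0.19). The log2 ratio of Col6a3 to Col6a1 was 4.24, 4.51 and 4.03 on the pregnant arrays and 3.58, 2.77 and 2.89 on the non-pregnant arrays. This difference of 1.18 ± 0.29 (SE) separated the groups, and its exact 2-sided permutation p was 0.1, the smallest that 3 against 3 arrays allow (0.4 adjusted over 4 chain pairs). The ratio of Col6a2 to Col6a1 differed by -0.22 ± 0.42 (exact 2-sided permutation p = 0.8) and changed sign with the probe sets averaged (0.06), or without non-pregnant replicate 1 (0.12). Col6a4 and Col6a5, the chains that can stand in for alpha 3, were too dim to be tested.

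**Figure D3:**
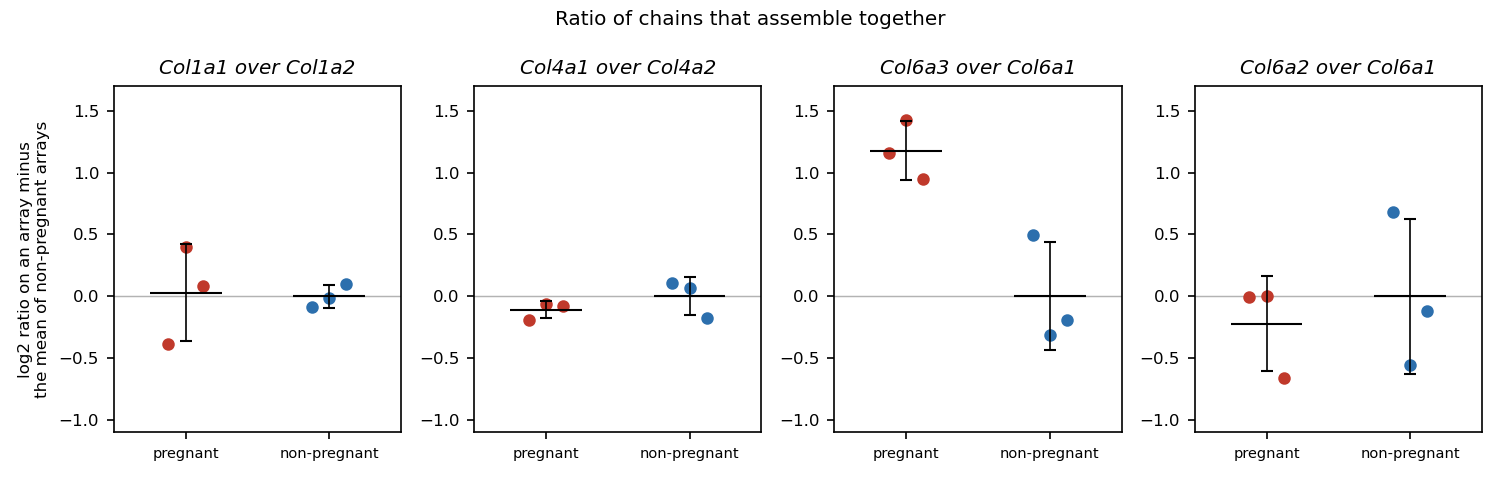
Log2 ratio of 2 chains of one collagen molecule on each array, set to 0 at the mean of the 3 non-pregnant arrays; lines are means and bars 1 SD, with pregnant arrays on the left. Only the ratio of Col6a3 to Col6a1 has groups that do not overlap, and the other 3 ratios overlap.

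The interstitial genes had the largest member difference, that of Dcn. It encodes decorin, a small leucine-rich proteoglycan that binds type I fibrils and also the growth factor TGF-beta. Its signal was 458, 556 and 749 on the pregnant arrays against 1395, 1281 and 1346 on the non-pregnant arrays. The highest pregnant array was thus far below the lowest non-pregnant one, and the mean was 588 ± 148 in pregnant and 1341 ± 57.2 in non-pregnant islets (SD, n = 3 each), a ratio of 0.438. The log2 difference was -1.20 ± 0.14 (adjusted p = 2.82e-04), and -1.38 to -1.04 across the 16 other settings. Only 1 probe set of Dcn was tested, and its other one was at most 53.6 on any array.

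Lum, the neighbour of Dcn on chromosome 10, encodes the related proteoglycan lumican. Its signal was 114, 176 and 194 on the pregnant arrays against 233, 233 and 264 on the non-pregnant arrays, with groups apart, but the difference did not pass (-0.58 ± 0.20, adjusted p = 0.0998). Biglycan, Bgn, is closest to decorin in sequence, and its brightest probe set had 708, 639 and 677 on the pregnant arrays against 827, 768 and 900.2 on the non-pregnant arrays (-0.29 ± 0.10, adjusted p = 0.089). All 3 of its tested probe sets lay below 0, and with these averaged Bgn passed (-0.44, adjusted p = 0.025).

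Postn, periostin, a matrix protein of remodelling tissue, had 180.5, 210.2 and 253 on the pregnant arrays against 285, 336 and 305 on the non-pregnant arrays (-0.50 ± 0.16, adjusted p = 0.074). Its adjusted p was 0.0454 when every gene's probe sets were averaged. Eln, elastin, had 70.9, 101 and 87.3 on the pregnant arrays against 137, 141 and 115 on the non-pregnant arrays (-0.52 ± 0.23, adjusted p = 0.19). For both the pregnant arrays lay below the non-pregnant ones.

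Sparc, osteonectin, a collagen-binding protein of matrix-making cells, was bright, at 3264, 3837 and 4194 on the pregnant arrays against 4667, 4186 and 4332 on the non-pregnant arrays. The groups overlapped by a single pregnant array (-0.23 ± 0.09, adjusted p = 0.13). Further Sparc probe sets had -0.03 ± 0.12 and, at a dim signal, -0.51 ± 0.39, and did not pass. Fn1, fibronectin, was the 1 interstitial gene with a positive difference, at 215, 117 and 132 on the pregnant arrays against 116, 176 and 107 on the non-pregnant arrays (0.18 ± 0.26, adjusted p = 0.74), which turned to -0.06 without pregnant replicate 1. Lox, the lysyl oxidase that cross-links collagen and elastin, had 3 probe sets, all too dim to be tested, with signals of 0.9 to 81.8 over all arrays.

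**Figure D4:**
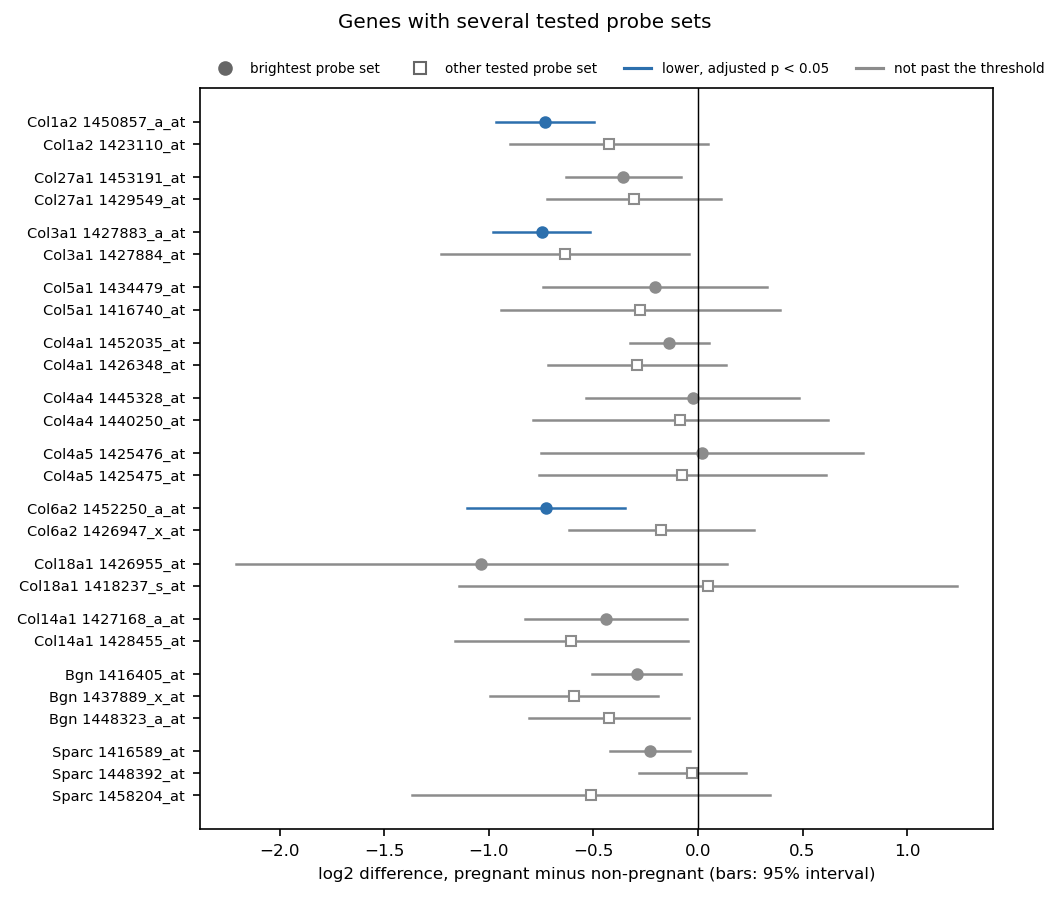
Log2 difference with 95% interval of every tested probe set of the 12 member genes that have several; filled circles are the brightest probe set of a gene and open squares the others, and blue marks those past the threshold. All probe sets of 10 genes lie below 0, those of Col1a2, Col3a1 and Bgn among them, and those of Col4a5 and Col18a1 lie on both sides.

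The other collagens were dim and none of those tested passed. Among FACIT chains, which coat fibrils, 0 of 5 passed in limma. The unadjusted p was under 0.05 for 2 of them, against 3516 of all 12914 genes tested. Col14a1 had -0.44 ± 0.18, Col20a1 -0.48 ± 0.19 and Col9a1 -0.44 ± 0.34. Col22a1 and Col16a1 had -0.14 ± 0.27 and -0.03 ± 0.16. Col20a1 had 126, 100.2 and 114 on the pregnant arrays against 165, 172 and 154 on the non-pregnant arrays, which is 1 of the 10 separations noted above. The network-forming Col8a1 and Col8a2 had -0.40 ± 0.28 and -0.56 ± 0.31, and the transmembrane Col13a1 and Col23a1 had -0.03 ± 0.14 and 0.46 ± 0.40. The 50 probe sets not tested ran from 0.4 to 107.1 in signal; control probe sets for a bacterial transcript, which no islet makes, ran from 1.1 to 32.3. They cover Col12a1, Col19a1, Col9a2, Col9a3, Col10a1, Col17a1, Col25a1, Col26a1 and Col7a1 among others. In 4 of them the groups were apart, namely probe sets of Col11a1, Col8a1 and Col23a1 (3, lower in pregnant) and of Fn1 (1, higher). Among all 11609 untested probe sets with a single symbol, 5.86% were apart with the pregnant arrays lower and 4.89% with them higher, so these 4 of 50 are near the background.

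Genes that fold, modify and process collagen went in both directions. Of 25 tested, 4 rose and 3 fell, with a median log2 difference of -0.15, where 6.1% of all genes tested were higher and 5.79% lower. Ppib, cyclophilin B, a proline isomerase that folds procollagen among other secreted proteins, had 7254, 7481 and 7222 on the pregnant arrays against 4787, 3878 and 4793 on the non-pregnant arrays (0.71 ± 0.08, adjusted p = 1.65e-04). Bmp1, the protease that trims the C-terminal end of fibrillar procollagens, had 1899.8, 1968 and 2005 on the pregnant arrays against 1297, 1260.0 and 1302 on the non-pregnant arrays (0.60 ± 0.07, adjusted p = 2.64e-04). The groups were apart in both, and both passed in all 16 other settings.

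P4hb, protein disulfide isomerase, which is also a subunit of the prolyl hydroxylase that stabilises the helix, rose by 0.37 ± 0.06 (adjusted p = 0.00288). Serpinh1, the collagen chaperone HSP47, fell: it had 2589.7, 2492 and 2842 on the pregnant arrays against 3710.4, 3812 and 3231 on the non-pregnant arrays (-0.44 ± 0.08, adjusted p = 0.0048). Both of these calls were lost without the variance trend, at adjusted p = 0.11 and 0.094. The export factor Mia3 (0.24 ± 0.06) and the cross-linking transglutaminase Tgm2 (-0.75 ± 0.19) passed at adjusted p = 0.0177 and 0.0305, and lost the call in 6 and 7 of 16 settings. The third gene that fell was P4ha1, the catalytic subunit of prolyl 4-hydroxylase (-0.31 ± 0.09, adjusted p = 0.0397), whose call was lost in 10 of 16 settings, quantile normalization and median centring among them. All 3 of the genes P4hb, Ppib and Mia3 also serve the secretion of proteins other than collagen.

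In the TGF-beta pathway, the main known inducer of matrix genes, 0 of 17 tested genes rose and 3 fell, with a median of -0.22, where 5.79% of all genes tested were lower and 6.1% higher. Tgfbr3, the co-receptor betaglycan, had 610.5, 702 and 728 on the pregnant arrays against 933, 911 and 1067 on the non-pregnant arrays (-0.50 ± 0.10, adjusted p = 0.00966), and lost the call without pregnant replicate 1 (0.051) or the variance trend (0.080). Smad4 (-0.26 ± 0.07) and the pathway inhibitor Skil (-0.40 ± 0.10) passed at adjusted p = 0.0285 and 0.0318 and lost the call in 7 and 8 of 16 settings. Of the 17 genes, 14 lay below 0, against 56.5% of all genes tested. Tgfb1, Tgfbr1 and Tgfbr2 had 0.15 ± 0.27, -0.03 ± 0.08 and -0.31 ± 0.16. Smad2, Smad3 and Ccn2 had -0.01 ± 0.10, 0.08 ± 0.16 and -0.03 ± 0.11, and none of these passed.

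Among matrix proteases and their inhibitors 0 of 16 rose and 3 fell, with a median of -0.20, beside the same 5.79% lower and 6.1% higher over all genes. Timp3, a matrix-bound inhibitor of metalloproteases, had 1870.0, 1872 and 2075 on the pregnant arrays against 2567, 2864 and 3488 on the non-pregnant arrays (-0.60 ± 0.10, adjusted p = 0.00287; 0.081 without the variance trend). Timp2 (-0.47 ± 0.12, adjusted p = 0.028) and the gelatinase Mmp2 (-1.07 ± 0.28, adjusted p = 0.033) fell too, with calls lost in 7 of 16 and 8 of 15 settings. Mmp2 was at 68.2, 33.1 and 74.1 on the pregnant arrays against 133, 136 and 138 on the non-pregnant arrays. Of 6 collagen receptor genes tested, 0 passed in limma and 0 had an unadjusted p under 0.05, against 3516 of all 12914 genes. All of the 6 lay below 0 (median -0.15).

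Endothelial markers, of the vessels that carry basement membrane, had a median of -0.14, with 1 of 11 lower (Flt1) and 0 higher. Over all genes tested 5.79% were lower and 6.1% higher, a background that also applies to the lists below. The summed endothelial signal was 9509 to 10619 on the pregnant and 10738 to 11325 on the non-pregnant arrays, without overlap. Taken singly, 17.9% of all genes tested had the pregnant arrays wholly below the non-pregnant ones. Macrophage markers (7 tested, 0 past the threshold in limma) had a median of 0.003. The unadjusted p was under 0.05 for 1 of the 7, against 3516 of all 12914 genes tested. Of 5 Schwann cell markers, with a median of -0.39, 1 rose (Ngfr) and 1 fell (Cryab). Of 4 duct markers, with a median of -0.19, 2 fell (Krt7 and Tspan8), with calls lost in 5 and 6 of 16 settings. The duct markers Krt19 and Sox9 had 0.83 ± 0.41 and -0.12 ± 0.31 and did not pass. The part of these cell types in the differences of the matrix genes was not tested.

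**Figure D5:**
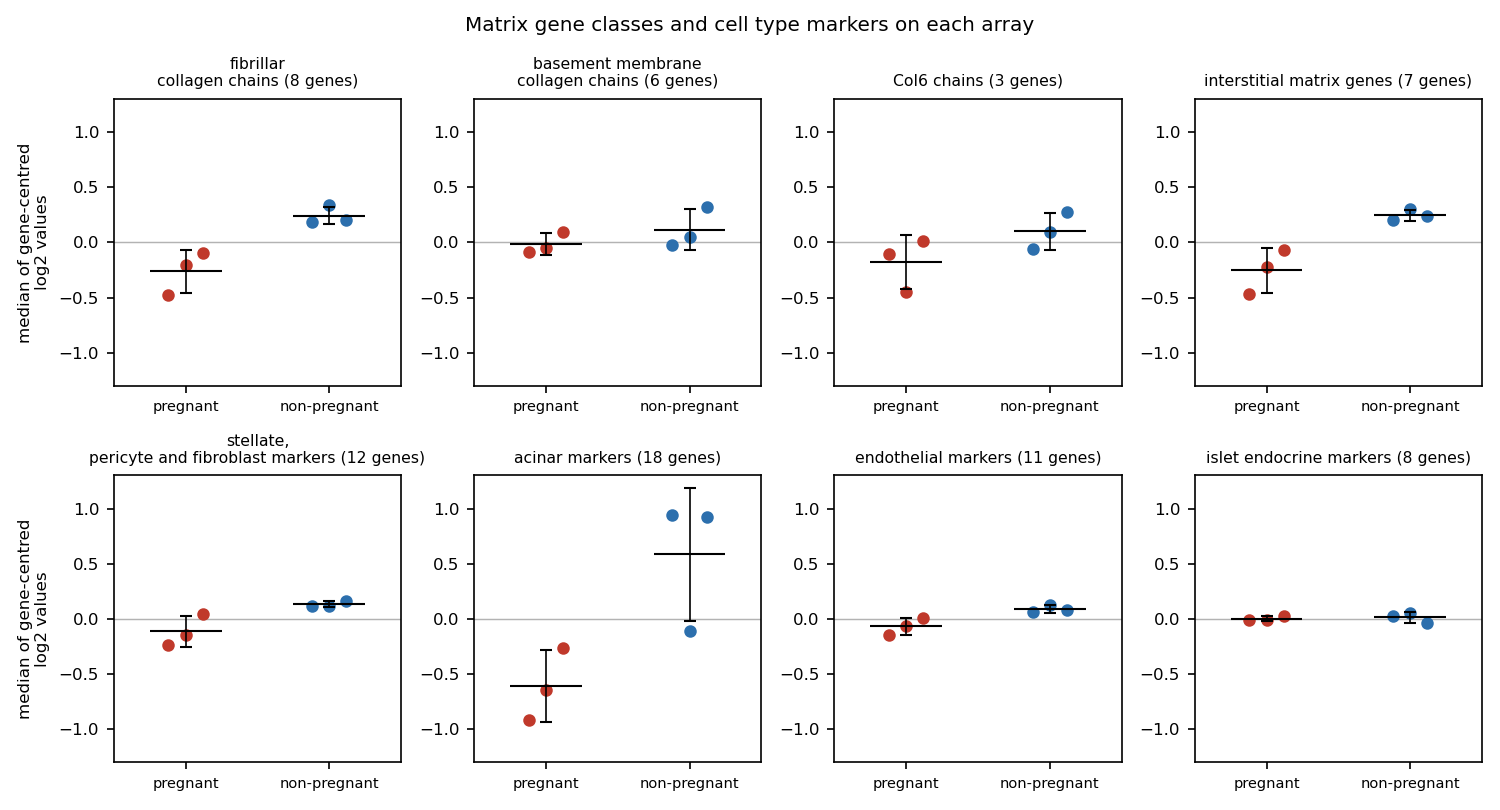
Median over each class or marker list of log2 values centred per gene, on each array; pregnant arrays are on the left, lines are means and bars 1 SD. The fibrillar and interstitial medians are below 0 on all 3 pregnant arrays and above 0 on all 3 non-pregnant arrays. The medians of the stellate, pericyte and fibroblast list, the endothelial list and the acinar list do not overlap between the groups either. The basement membrane, Col6 and islet endocrine medians overlap, and the acinar medians have the widest range.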

How the data were processed

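Total RNA of islets was hybridised to Affymetrix 3' expression arrays, 3 of pregnant and 3 of non-pregnant mice. The deposited values are intensities, MAS5 signals scaled to a common trimmed mean per the submitters' processing notes and the values; the MAS5 version is not given in the sources used here. Of 45101 probe sets, 64 control probe sets were left out. The 60% with the highest mean signal (27022) were tested on log2(signal + 16) with limma 3.58.1 in R 4.3.3 (lmFit, eBayes with a trend, 4 residual degrees of freedom), with Benjamini-Hochberg adjustment over all of them. The number of arrays limits the precision. Probe sets were named from the platform annotation where it gives 1 symbol (34958; 932 had several and 9211 none), and each gene is represented by its brightest tested probe set. Class medians are descriptions. Ratios of chains were compared by exact permutation over arrays.

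Every tested member is named with its value or in a range. Called genes of pathway lists are named up to the 6 with the smallest p, and marker genes up to 3 by signal. P4ha1, Flt1, Ngfr, Cryab, Krt7, Tspan8, Dpt and the other marker and pathway genes outside that rule were chosen after their values were seen. The members and lists were chosen with earlier results of these data known. Alternatives were pseudocounts of 1 and 64, quantile normalization, median centring, no filter, a top 40% filter, other variance models, averaged probe sets, the replicate number as a block and leaving out each array. The test was tried on simulated data with independent normal noise for each probe set. Such data hold no shift shared by many genes, so they do not cover that case.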

Additional observations from a re-analysis of the deposited data

How the results depend on the processing

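Of 16 other settings tried, Dcn, Col1a2 and Col6a3 were past the threshold in all. Dcn and Col6a3 rest on 1 tested probe set each, so averaging probe sets does not check them. Without the variance trend 2 member probe sets and 2 member genes were lower, and overall 393 probe sets were higher and 210 lower; the collagen processing list then had 2 higher and 0 lower, and the TGF-beta and protease lists 0 lower each. Median centring left 1 lower gene in the processing list and 1 in the TGF-beta list, and no filter left 1 in the processing list and 1 in the protease list. Leaving out 1 array left 1 to 2 lower processing genes, 0 to 2 lower TGF-beta genes and 1 to 2 lower protease genes, with fewer arrays in each fit. The Col6 median was 0.65 with no filter and -0.028 with the top 40%, and the fibrillar median was -0.54 with the top 40%; dimmer genes enter these medians with no filter and drop out with the top 40%. The difference between Col1a1 and Col1a2 was -0.078 with a pseudocount of 1, -0.12 with probe sets averaged, and -0.15 to 0.24 without 1 array; that between Col6a2 and Col6a1 was 0.056 with probe sets averaged and -0.50 to 0.12 without 1 array. Among genes not called, signs turned for Col4a4 (0.048 with quantile normalization and 0.049 with median centring), Col5a2 (3e-04), Col4a2 (0.046) and Rgs5 (0.068) with median centring, and Col4a5 (-0.028) with probe sets averaged. Without 1 array the ranges were -0.30 to 0.55 for Col4a3, -0.13 to 0.12 for Col4a4, -0.26 to 0.30 for Col4a5, -0.56 to 0.18 for Col4a6, -0.094 to 0.017 for Col4a2, -0.13 to 0.031 for Col5a2, -0.056 to 0.38 for Fn1 and -0.058 to 0.088 for Rgs5. For the remaining changes the cause was not tested. The replicate numbers do not pair the arrays: deviations of same-numbered arrays correlated at -0.07 to 0.03, and 2 of 6 arrays went best with their own number. With the replicate block 4 member genes were lower and 1 higher, and overall 1211 probe sets were higher and 1145 lower.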
